A study of Mus musculus with 6 samples.

Results

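The collagen genes of mouse medullary thymic epithelial cells (mTECs) are described here. They were taken by symbol: every row of the 6 deposited tables whose gene name is Col followed by a number, the letter a and a number was a member. This gave 50 rows for 44 genes, out of 20443 genes in all. Col4a3bp, a ceramide transfer protein gene whose name begins the same way, was left out. The genes were placed in 3 classes, with 11 fibrillar chains, 8 chains of basement membranes (type IV and the multiplexins Col15a1 and Col18a1) and 25 other chains. All 44 are annotated as protein coding. The 3 cKO libraries (cKO_262, cKO_263 and cKO_265) were made from Jmjd3fl/fl-Foxn1-cre mice. The 3 Con libraries (Con_253, Con_261 and Con_264) were made from Jmjd3fl/fl mice, which carry the floxed alleles and no Cre. All mice were C57BL/6 and 4 weeks old, and flow cytometry was used to sort the mTECs. The labels do not say whether each library is a separate mouse, so p-values measure the spread between these libraries. Jmjd3, with the symbol Kdm6b, is a histone demethylase, and Foxn1-cre is active in thymic epithelium. Since the controls carry no Cre, the loss of Jmjd3 and the presence of Cre cannot be told apart.

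Collagens are secreted or membrane-bound proteins in which chains with repeats of glycine and 2 further residues wind around each other into a helix. Fibrillar chains form the cables of connective tissue and are mostly made by fibroblasts and cartilage cells, whereas type IV chains form the sheet on which epithelia and endothelia rest. Type XVII collagen spans the membrane of basal epithelial cells and holds them to that sheet. mTECs express many genes of peripheral tissues for the education of T cells, and several collagens, such as those of types II, IV, VII and XVII, are known targets of autoimmune disease.

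Levels were read as FPKM, a read density corrected for transcript length and for the size of the library. The tables do not name their unit, which was taken from the use of Cufflinks, and sequencing depth is unknown. Kdm6b itself was at 11.1, 11.6 and 8.67 FPKM in cKO libraries, against 18.1, 17.1 and 9.998 FPKM in Con libraries. Its groups overlapped through Con_264 (limma adjusted p = 0.418), and a value over the whole gene also counts exons outside the floxed part. The summed FPKM of a library was between 582835 and 641060 in the cKO group and between 461152 and 543156 in the Con group. Library cKO_265 stood apart on the first principal component, at 53.02 against -22.7 to 7.42 for the other 5 libraries. The Y-linked gene Ddx3y reached 2.22 FPKM in Con_253, whereas the other 5 libraries lay at or below 0.0117 FPKM. Of 10 mTEC markers all were detected, with Epcam at 813.2 to 945.3 FPKM in cKO and 750.5 to 887.2 FPKM in Con, and Aire at 317.4 to 504.2 FPKM in cKO and 230.3 to 398.9 FPKM in Con. Fitted differences, cKO minus Con, were positive for 7 of the 10 and negative for 3. Without overlap, 1 was higher (against 9.59% of all genes) and 0 were lower (against 11.9% of all genes). The higher one was Cd40, at 189.4 to 193.1 FPKM in cKO and 136.6 to 151.3 FPKM in Con.

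Collagen RNA was dominated by one gene. Col17a1, the type XVII chain, was at 151.0, 152.1 and 192.6 FPKM in cKO libraries, against 105.9, 101.1 and 74.7 FPKM in Con libraries (here and below in the order cKO_262, cKO_263, cKO_265 and Con_253, Con_261, Con_264). It held 42.5% to 54.2% of the summed collagen FPKM in the cKO libraries and 28.9% to 36.3% in the Con libraries. Averaged over the 6 libraries, Col4a1 came next at 26.4 FPKM, then Col6a1 at 22.05, Col18a1 at 10.997 and Col14a1 at 10.8 FPKM. The 9 genes under the test's minimum of 0.5 FPKM averaged between 0.126 FPKM (Col25a1) and 0.459 FPKM (Col4a6), and the lowest gene above it was Col13a1 at 0.527 FPKM. No collagen gene was listed at 0 in any library. Between 26 and 32 of the 44 genes reached 1 FPKM in a cKO library and between 27 and 30 in a Con library.

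**Figure D1:**
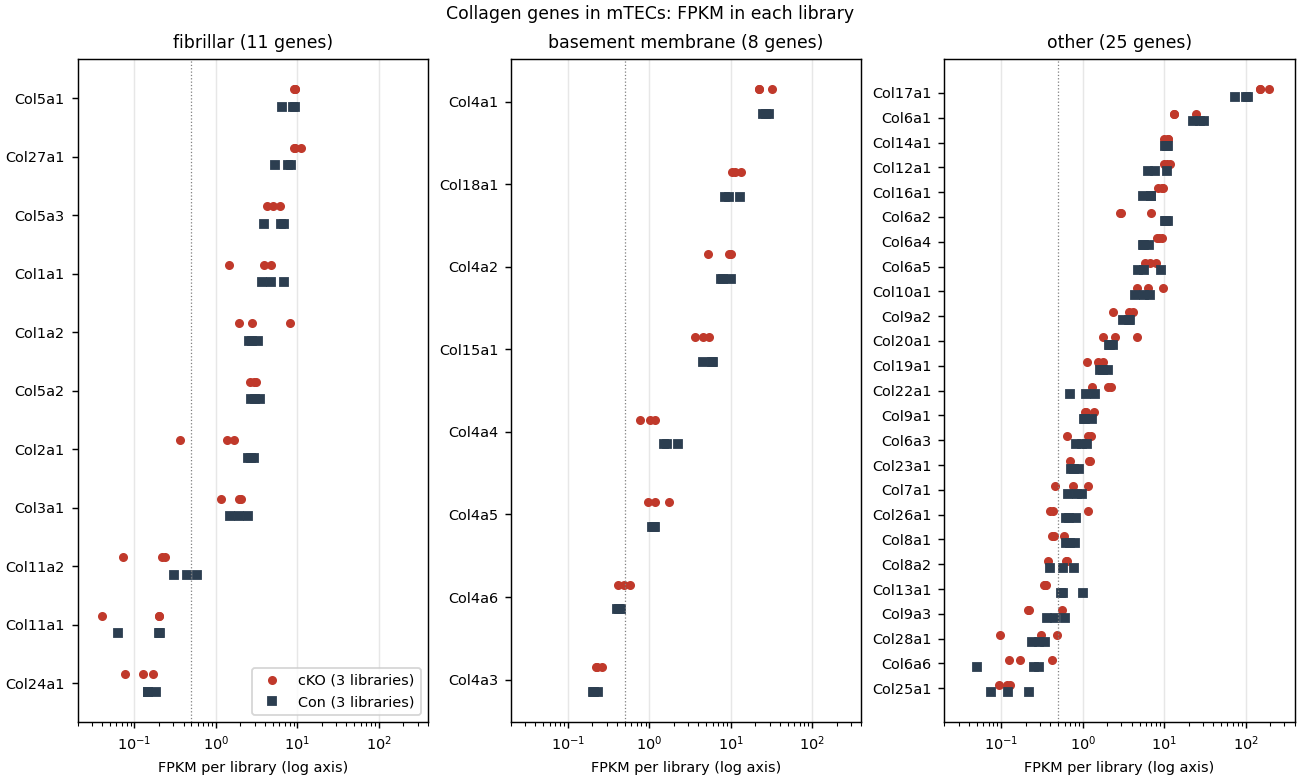
FPKM of all 44 collagen genes in each library (horizontal log axis), by class and ordered by mean level, with the 3 cKO libraries as red circles above and the 3 Con libraries as dark squares below in each row. The dotted line marks the minimum of 0.5 FPKM for the test. Col17a1 lies far to the right of all other chains, at 74.7 to 192.6 FPKM.

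The summed FPKM of the 44 genes was 347.4 ± 13.7 in cKO libraries and 284.2 ± 22.8 in Con libraries (SD, n = 3 each). Without Col17a1 the sum was 162.7 to 204.3 FPKM in cKO and 183.9 to 201.2 FPKM in Con, and the groups overlapped. The share of all FPKM held by collagen genes was 0.0562% ± 0.00439 in cKO and 0.0565% ± 0.00294 in Con libraries. The basement membrane class took 12.9% to 17.7% of the collagen signal in cKO and 18.9% to 19.98% in Con. Its summed FPKM overlapped, at 45.8 to 62.8 in cKO and 48.9 to 58.4 in Con, so the lower share went with the higher total. The fibrillar class took 9.09% to 13.1% in cKO and 12.2% to 13.9% in Con.

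**Figure D2:**
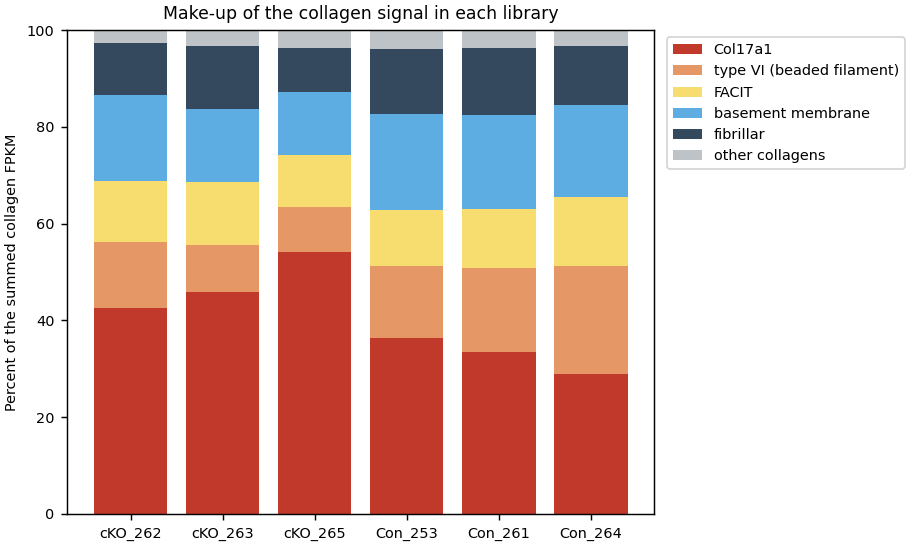
Percent of the summed collagen FPKM held by Col17a1 and by groups of chains in each library (stacked bars, cKO libraries on the left and Con libraries on the right). Col17a1 takes the largest portion of every bar, 42.5% to 54.2% in cKO and 28.9% to 36.3% in Con.

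By its title, the series asks whether mTECs need Jmjd3 to express genes of peripheral tissues, and each collagen gene was therefore compared between the groups. Of the 44 genes, 35 passed the minimum and were tested. At an adjusted p under 0.05 (limma, Benjamini-Hochberg over all 15720 genes tested) 0 collagen genes changed, where 12 of all genes did (0.0763%, of which 0.0191% were higher and 0.0573% lower). At an unadjusted p under 0.05, 3 collagen genes were higher (Col17a1, Col6a4 and Col16a1, 8.57% of the 35, against 6.81% of all genes). On the same measure 4 were lower (Col6a2, Col2a1, Col6a1 and Col4a4, 11.4%, against 7.82% of all genes). The 3 cKO and 3 Con values did not overlap for 4 collagen genes with higher values in cKO (11.4%, against 9.59% of all genes) and 5 with lower values (14.3%, against 11.9%). These shares lay close to those of all genes. The median difference, cKO minus Con on the log2(FPKM + 1) scale, was -0.03 over the 35 collagen genes and -0.04 over all genes. With limma's arrayWeights, which down-weights deviating libraries, 9 collagen genes passed (25.7%, against 19.2% of all genes), and without cKO_262 Col6a2 alone passed (2.86%, against 0.146% of all genes).

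**Figure D3:**
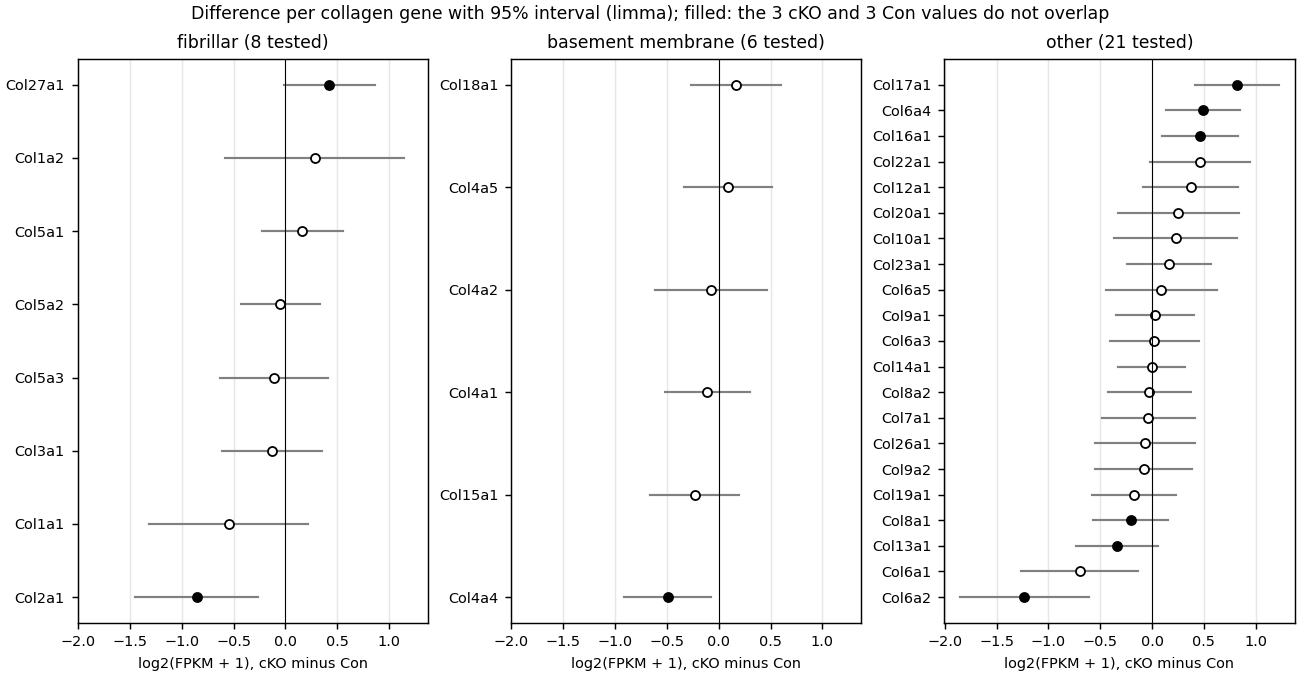
Difference on the log2(FPKM + 1) scale, cKO minus Con, for the 35 tested collagen genes (points) with the 95% interval of the limma fit (lines), by class. Filled points are the 9 genes whose cKO and Con values do not overlap. Col17a1 at 0.82 and Col6a2 at -1.23 lie farthest from 0 on either side.

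Among fibrillar chains, 3 of 8 tested genes had positive and 5 negative differences, with a median of -0.08. Col2a1, the chain of cartilage and of the vitreous body of the eye, was at 1.64, 1.37 and 0.360 FPKM in cKO libraries, against 2.46, 2.92 and 2.72 FPKM in Con libraries. All 3 cKO values lay below all Con values, with cKO_265 lowest (difference -0.86, SE 0.26, limma adjusted p = 0.202). Col2a1 has 2 rows at one locus, of which the second gave the larger value in every library. With that row alone the difference was -0.77. The first row reached 0.363 and 0.279 FPKM in Con_261 and Con_264 and was below 1e-04 FPKM in the other 4 libraries.

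Col27a1, a fibrillar chain of cartilage, was at 11.1, 9.25 and 9.08 FPKM in cKO libraries, against 8.26, 7.75 and 5.36 FPKM in Con libraries. The groups did not overlap, although the gap between cKO_265 and Con_253 was small (difference 0.42, SE 0.19, adjusted p = 0.353). Col1a1, a chain of the type I collagen of bone and skin, was at 4.72, 3.93 and 1.45 FPKM in cKO libraries, against 4.74, 6.94 and 3.72 FPKM in Con libraries. Its partner Col1a2 was at 2.76, 8.17 and 1.94 FPKM in cKO libraries, against 3.25, 2.52 and 2.78 FPKM in Con libraries. The groups overlapped for each chain, and cKO_263 stood out for Col1a2. The ratio of Col1a1 to Col1a2 was 0.481 to 1.71 in cKO and 1.34 to 2.75 in Con. Col5a1, a chain of the type V collagen that sets the width of fibrils, was at 9.47, 9.28 and 8.96 FPKM in cKO libraries, against 8.71, 9.42 and 6.55 FPKM in Con libraries (adjusted p = 0.709). Col5a2, Col5a3 and Col3a1 had differences from -0.13 to -0.05. Col11a1, Col11a2 and Col24a1 were below the minimum. Of these, Col11a2 was at 0.0713 to 0.236 FPKM in cKO and at 0.302 to 0.588 FPKM in Con, without overlap.

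Among the 6 tested basement membrane chains, 2 had positive and 4 negative differences, with a median of -0.09. The 6 type IV genes lie in 3 pairs that are read away from a common start region. The pair Col4a1 and Col4a2, the chains of nearly all basement membranes, has 2 bases between its starts on chromosome 8. Col4a1 was at 32.3, 22.2 and 22.1 FPKM in cKO libraries, against 27.4, 29.5 and 24.9 FPKM in Con libraries. Col4a2 was at 9.95, 9.51 and 5.30 FPKM in cKO libraries, against 8.04, 10.01 and 7.52 FPKM in Con libraries. Neither chain differed beyond the spread (adjusted p = 0.818 and 0.916), and the 95% intervals of the difference were -0.52 to 0.30 for Col4a1 and -0.62 to 0.47 for Col4a2. On FPKM, which is per length, Col4a1 lay above Col4a2 in every library, by 2.34 to 4.16 times in cKO and 2.95 to 3.41 times in Con.

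The pair Col4a4 and Col4a3 makes chains of the kidney filter, inner ear and lung, and Col4a3 holds the Goodpasture autoantigen. Their starts are 71 bases apart on chromosome 1, and the stretch between them is shown because the pair shares it while its members had unlike values (GRCm38, chr1:82586850-82586920, read in the direction of Col4a4, sequence from RefSeq):
Col4a4-Col4a3: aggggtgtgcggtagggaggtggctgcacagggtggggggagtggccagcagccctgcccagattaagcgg
This stretch held 2 CG pairs, 69% G and C, and none of the 3 motifs searched on either strand, which were the TATA box (TATAAA), the CCAAT box and the GC box (its letters GGGCGG). Col4a4 was at 1.012, 1.16 and 0.767 FPKM in cKO libraries, against 2.24, 1.501 and 1.65 FPKM in Con libraries. All cKO values lay below all Con values (difference -0.49, SE 0.18, limma adjusted p = 0.267). Col4a3 was below the minimum for a test, at 0.221, 0.227 and 0.261 FPKM in cKO libraries, against 0.204, 0.208 and 0.234 FPKM in Con libraries, with overlap. The ratio of Col4a4 to Col4a3 was 2.94 to 5.13 in cKO and 7.07 to 10.9 in Con, without overlap. No test was made on this ratio, and its separation is not independent of that of Col4a4 itself.

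The third pair, Col4a6 and Col4a5 on the X chromosome, has 1342 bases between its starts. Col4a5 was at 1.17, 0.956 and 1.76 FPKM in cKO libraries, against 1.08, 1.17 and 1.14 FPKM in Con libraries. Col4a6 was at 0.414, 0.491 and 0.572 FPKM in cKO libraries, against 0.419, 0.404 and 0.454 FPKM in Con libraries. The groups overlapped for both. Col18a1, whose end piece is endostatin, was at 13.3, 10.2 and 11.4 FPKM in cKO libraries, against 13.002, 9.51 and 8.56 FPKM in Con libraries (adjusted p = 0.734). Its 2 rows contributed 8.91 to 12.3 and 0.522 to 1.32 FPKM in cKO, and 7.21 to 11.9 and 1.08 to 1.35 FPKM in Con. The second row was the lower one in every library. Col15a1, the other multiplexin, was at 4.52, 5.34 and 3.67 FPKM in cKO libraries, against 5.85, 6.03 and 4.50 FPKM in Con libraries (adjusted p = 0.614).

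Among the 21 tested chains of other kinds, 11 had positive and 10 negative differences, with a median of 0.02. Col17a1, given above by library, averaged 165.3 ± 23.7 FPKM in cKO and 93.9 ± 16.8 FPKM in Con (SD, n = 3 each). Every cKO value lay above every Con value, and the difference of 0.82 (SE 0.18, 95% interval 0.41 to 1.22) did not pass over all genes (limma adjusted p = 0.125). The 250 bases before its start (chromosome 19, minus strand, chr19:47692043-47692292, GRCm38, sequence from RefSeq) are shown because this gene carries the largest part of the collagen signal, with the same motifs on either strand in capitals:
Col17a1: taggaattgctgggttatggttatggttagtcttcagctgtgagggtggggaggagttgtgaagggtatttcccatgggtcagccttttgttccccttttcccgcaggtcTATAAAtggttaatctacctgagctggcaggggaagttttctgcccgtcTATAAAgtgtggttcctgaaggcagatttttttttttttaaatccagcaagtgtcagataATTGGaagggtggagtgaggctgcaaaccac
They held the TATA box letters at 2 places, those of the CCAAT box at 1 place, on the opposite strand, and those of the GC box at none. The TATA box letters occurred in 5 of the 38 windows found for 35 of the 44 collagen genes (13.2%) and in 12.4% of the windows of all genes. The CCAAT box letters occurred in 34.2% of collagen windows and 33.8% of all windows, and the GC box letters in 57.9% of collagen windows and 32.7% of all windows. The windows of all genes numbered 32851, with no restriction to protein-coding genes or to a single window per gene. The 38 collagen windows are few, and no test was made on these shares. These matches are descriptions of letters, not of bound sites.

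Col17a1 sits in the hemidesmosome, the rivet between basal epithelium and basement membrane, and 10 genes of that structure were looked at after the value of Col17a1 was seen. Of these, 0 passed over all genes, 8 had positive and 2 negative differences, and the median was 0.12. At an unadjusted p under 0.05 (limma), 0 were higher (against 6.81% of all genes) and 1 was lower (10%, against 7.82% of all genes). Without overlap, 1 of the 10 was higher (against 9.59% of all genes) and 2 were lower (against 11.9% of all genes). The integrin chain gene Itga6 was at 60.1, 54.96 and 60.2 FPKM in cKO libraries, against 66.7, 73.3 and 90.3 FPKM in Con libraries (adjusted p = 0.296). The basal keratin genes Krt5 and Krt14 overlapped between the groups. Col7a1, which ties the same zone to the tissue below, was at 0.460 to 1.16 FPKM in cKO and 0.658 to 0.974 FPKM in Con, also with overlap. Itga6 and Cd151 thus lay on the other side from Col17a1 in these libraries. The other 8 genes had positive differences, such as the integrin chain gene Itgb4 at 0.21, with overlap.

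Type VI collagen, the beaded filaments around cells, had members on both sides. Col6a2 was at 6.85, 2.91 and 2.96 FPKM in cKO libraries, against 10.2, 11.3 and 10.5 FPKM in Con libraries. The groups did not overlap, and cKO_262 lay between the other cKO libraries and the Con libraries. The difference of -1.23 (SE 0.27, 95% interval -1.85 to -0.61) was the most negative among collagen genes and did not pass (limma adjusted p = 0.125). Without cKO_262, the cKO library nearest to the Con values, it was -1.56 and passed (limma adjusted p = 0.0383). With any other single library left out it did not pass (limma adjusted p = 0.178 to 0.448). Col6a1 was at 24.4, 13.2 and 13.2 FPKM in cKO libraries, against 22.5, 27.8 and 31.2 FPKM in Con libraries. Here cKO_262 lay within the Con range (difference -0.70, SE 0.25, adjusted p = 0.251). Col6a3, the third chain of the classical molecule, was at 0.639 to 1.27 FPKM in cKO and 0.830 to 1.12 FPKM in Con, with a difference of 0.02. It is the sum of 2 rows, of which the first gave 0 to 0.211 FPKM in cKO and 0 to 0.130 FPKM in Con.

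The classical molecule holds the 3 chains in equal parts, and their RNA levels were unequal in all libraries. The ratio of Col6a1 to Col6a2 was 3.56 to 4.53 in cKO and 2.21 to 2.98 in Con, and that of Col6a2 to Col6a3 was 2.29 to 5.84 in cKO and 10.1 to 12.2 in Con. Neither ratio overlapped between the groups, and no test was made on them. Both ratios hold Col6a2, whose own values did not overlap, so their separation is not independent of that gene. Col6a2 and Col6a1 are neighbours on chromosome 10, read in the same direction with 85.4 kb between them. The 250 bases before each start are shown because both genes had lower means in cKO (GRCm38, minus strand, chr10:76726045-76726294 and chr10:76623405-76623654, RefSeq sequence, same motifs in capitals):
Col6a1: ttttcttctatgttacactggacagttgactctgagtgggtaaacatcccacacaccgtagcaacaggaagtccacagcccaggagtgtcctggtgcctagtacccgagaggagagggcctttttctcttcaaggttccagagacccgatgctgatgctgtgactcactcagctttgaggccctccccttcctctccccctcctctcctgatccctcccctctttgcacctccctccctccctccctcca
Col6a2: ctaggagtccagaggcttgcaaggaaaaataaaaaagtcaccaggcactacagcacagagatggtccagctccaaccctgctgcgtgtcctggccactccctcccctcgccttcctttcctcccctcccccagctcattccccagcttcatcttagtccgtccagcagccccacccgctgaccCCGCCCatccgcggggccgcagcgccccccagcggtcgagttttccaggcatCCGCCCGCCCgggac
The Col6a1 stretch held none of the motifs and 3 CG pairs. The Col6a2 stretch held the GC box letters at 3 places on the opposite strand, of which the last 2 overlap, and 14 CG pairs, with 64.4% G and C, against 56% in the Col6a1 stretch.

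The longer alternative type VI chains lie in a row on chromosome 9, with 28.0 kb between Col6a6 and Col6a5 and 29.7 kb between Col6a5 and Col6a4. Col6a4 was at 9.34, 8.69 and 8.11 FPKM in cKO libraries, against 5.52, 6.59 and 5.60 FPKM in Con libraries. The groups did not overlap (difference 0.49, SE 0.16, adjusted p = 0.221). Its neighbour Col6a5 was at 5.82 to 7.93 FPKM in cKO and at 4.82 to 9.21 FPKM in Con, with overlap, and Col6a6 was below the minimum. Thus Col6a4 lay above the Con range while Col6a2 lay below it, in the same libraries.

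**Figure D4:**
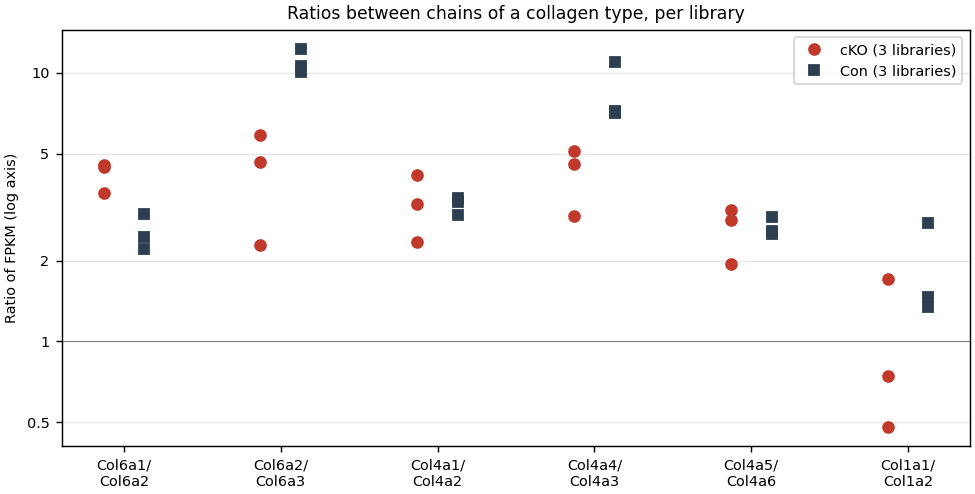
Ratio of FPKM between chains of the same collagen type in each library (vertical log axis), with the 3 cKO libraries as red circles on the left and the 3 Con libraries as dark squares on the right of each pair. The ratios of Col6a1 to Col6a2, Col6a2 to Col6a3 and Col4a4 to Col4a3 do not overlap between the groups. Each of them holds Col6a2 or Col4a4, whose own values do not overlap. The ratios of Col4a1 to Col4a2, Col4a5 to Col4a6 and Col1a1 to Col1a2 overlap.

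Chains that decorate fibrils (FACIT) had 5 positive and 3 negative differences among 8 tested, with a median of 0.14. Col16a1, such a chain of skin and cartilage, was at 9.70, 9.35 and 8.43 FPKM in cKO libraries, against 6.82, 6.89 and 5.47 FPKM in Con libraries. All cKO values lay above all Con values (difference 0.46, SE 0.16, adjusted p = 0.244). Col14a1, which binds fibrils of type I, was at 10.1, 11.1 and 11.2 FPKM in cKO libraries, against 10.4, 11.2 and 10.9 FPKM in Con libraries. Its difference of -0.0038 had a 95% interval of -0.33 to 0.32. Its relative Col12a1 was at 10.04 to 11.8 FPKM in cKO and 6.35 to 10.9 FPKM in Con, and Col22a1, found where muscle meets tendon, at 1.30 to 2.23 FPKM in cKO and 0.708 to 1.42 FPKM in Con. Both overlapped. Col9a1, Col9a2, Col19a1 and Col20a1 had differences from -0.18 to 0.25, and Col9a3 was below the minimum.

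Of the remaining chains, Col13a1, a membrane collagen of the junction of nerve and muscle, was at 0.332 to 0.355 FPKM in cKO and 0.536 to 1.02 FPKM in Con, without overlap (adjusted p = 0.418). Col8a1, a short chain of vessels and cornea, was at 0.419 to 0.598 FPKM in cKO and 0.630 to 0.816 FPKM in Con, also without overlap (adjusted p = 0.593). Both lie near the minimum, where the added 1 makes differences small, and both had the deposited status NOTEST. Col10a1, the chain of cartilage that turns into bone, was at 4.59 to 9.74 FPKM in cKO and 4.37 to 6.79 FPKM in Con, with overlap. Col8a2, Col23a1 and Col26a1 had differences from -0.07 to 0.17, and Col25a1 and Col28a1 were below the minimum.

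Genes that act on collagen were read from 4 lists, and 0 of their 68 tested members passed over all genes (limma). At an unadjusted p under 0.05, the chain processing list had 4 of 31 genes higher (12.9%, against 6.81% of all genes) and 5 lower (16.1%, against 7.82% of all genes), with a median of -0.07. Its genes with the smallest p were Fkbp10, Pxdn, P3h2 (Leprel1 in the tables) and P4ha1. Fkbp10, a chaperone of procollagen, was at 1.80, 1.68 and 1.93 FPKM in cKO libraries, against 3.41, 3.94 and 2.75 FPKM in Con libraries (adjusted p = 0.181). Pxdn, which cross-links type IV collagen, was at 20.7, 20.2 and 18.5 FPKM in cKO libraries, against 12.9, 13.8 and 14.6 FPKM in Con libraries (adjusted p = 0.183). The prolyl hydroxylase gene Leprel1 was at 9.18, 6.41 and 3.89 FPKM in cKO libraries, against 12.9, 10.8 and 12.3 FPKM in Con libraries (adjusted p = 0.201). P4ha1, a catalytic chain of another prolyl hydroxylase, was at 25.7, 30.6 and 40.7 FPKM in cKO libraries, against 18.2, 21.7 and 21.97 FPKM in Con libraries (adjusted p = 0.213). These 4 genes were chosen by smallest p, so that their groups did not overlap adds little, and they lay on both sides. Of the 31 tested genes, 5 were higher without overlap (against 9.59% of all genes) and 5 lower (against 11.9% of all genes).

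The basement membrane partners (laminins, nidogens, perlecan and others) had 0 of 17 genes higher (against 6.81% of all genes) and 3 lower (17.6%, against 7.82% of all genes) at an unadjusted p under 0.05, with a median of -0.04. The matrix glycoprotein gene Sparc was at 28.6, 24.6 and 23.8 FPKM in cKO libraries, against 42.6, 32.3 and 33.4 FPKM in Con libraries (adjusted p = 0.238). The laminin chain gene Lamb1 was at 3.41 to 5.33 FPKM in cKO and 5.92 to 8.56 FPKM in Con, and the nidogen gene Nid1 at 1.64 to 2.39 FPKM in cKO and 2.81 to 3.94 FPKM in Con. These 3 genes were the lower ones at that p, and their groups did not overlap. Of the 17 tested genes, 1 was higher without overlap (against 9.59% of all genes) and 3 lower (against 11.9% of all genes).

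Collagen receptors had 0 of 8 tested genes higher (against 6.81% of all genes) and 1 lower (12.5%, against 7.82% of all genes) at an unadjusted p under 0.05, which is about the share of all genes. The lower one was Lair1, an inhibitory receptor of leukocytes, at 0.427 to 0.522 FPKM in cKO and 0.746 to 1.31 FPKM in Con (adjusted p = 0.291). Next came the adhesion receptor gene Adgrg1 (Gpr56 in the tables), the collagen-binding kinase gene Ddr2 and the uptake receptor gene Mrc2, with differences of -0.41, 0.26 and 0.18. Their groups overlapped. The integrin gene Itgb1 was at 30.4 to 32.2 FPKM in cKO and 28.9 to 42.1 FPKM in Con, and the receptor kinase gene Ddr1 at 33.3 to 47.5 FPKM in cKO and 30.1 to 52.5 FPKM in Con.

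Genes of collagen breakdown had 2 of 12 tested genes higher (16.7%, against 6.81% of all genes) and 3 lower (25%, against 7.82% of all genes) at an unadjusted p under 0.05. Mmp2, a protease of type IV and denatured collagen, was at 2.88, 2.52 and 2.30 FPKM in cKO libraries, against 8.06, 6.08 and 5.92 FPKM in Con libraries (difference -1.10, SE 0.18, adjusted p = 0.0981). Ctsk, the protease with which osteoclasts digest type I collagen, was at 21.8, 28.8 and 27.5 FPKM in cKO libraries, against 15.7, 17.1 and 13.5 FPKM in Con libraries (adjusted p = 0.135). Timp2, an inhibitor that also takes part in activating Mmp2, was at 7.94, 7.64 and 4.51 FPKM in cKO libraries, against 12.8, 10.7 and 11.1 FPKM in Con libraries (adjusted p = 0.193). The fibroblast protease gene Fap was at 0.935 to 2.50 FPKM in cKO and 3.06 to 3.54 FPKM in Con (adjusted p = 0.209). These 4 genes were chosen by smallest p, and their cKO and Con values did not overlap. Of the 12 tested genes, 2 were higher without overlap (against 9.59% of all genes) and 3 lower (against 11.9% of all genes). Mmp14 and Mmp9, the highest proteases of the list, overlapped between the groups.

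**Figure D5:**
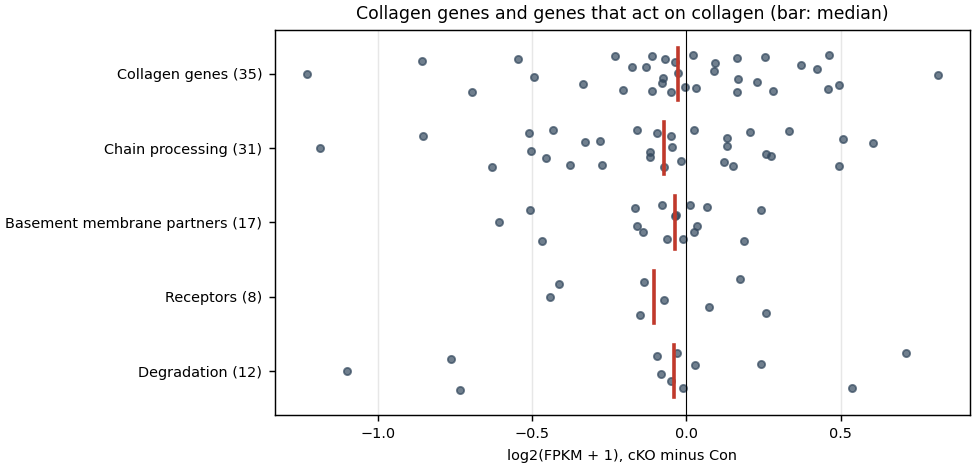
Difference on the log2(FPKM + 1) scale, cKO minus Con, for each tested collagen gene and each tested gene of the 4 lists (points, spread vertically to be seen apart), with the median of each row as a red bar. The medians lie between -0.11 and -0.03, and single genes reach from -1.23 to 0.82.

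Markers of other cells that a sort could hold were read beside these values. In a sorted bulk sample, fewer cells of a type and less RNA per cell cannot be told apart. Of 12 fibroblast markers, 11 were tested, 2 of them (Vim and Postn) were higher at an unadjusted p under 0.05 (18.2%, against 6.81% of all genes), and 7 had positive and 4 negative differences. The 12 markers summed to 552.7 to 625.1 FPKM in cKO and 385.7 to 393.7 FPKM in Con, without overlap. Most of that sum was Vim, a filament gene that many cell types express, at 491.3, 560.4 and 537.2 FPKM in cKO libraries, against 319.1, 323.1 and 313.8 FPKM in Con libraries (adjusted p = 0.107). Without Vim the sum was 61.3 to 69.4 in cKO and 62.6 to 74.6 in Con. The defining fibroblast receptor gene Pdgfra was below the minimum, at 0.318 to 0.492 FPKM in cKO and 0.312 to 0.747 FPKM in Con. The proteoglycan gene Dcn was at 11.8 to 20.04 FPKM in cKO and 15.6 to 23.6 FPKM in Con. The 7 markers of pericytes and smooth muscle summed to 190.1 to 228.5 FPKM in cKO and 196.8 to 228.7 FPKM in Con, and the 8 endothelial markers to 14.4 to 22.8 FPKM in cKO and 16.8 to 23.2 FPKM in Con. Esam was the largest part of the endothelial sum, at 7.32 to 15.2 FPKM in cKO and 8.34 to 13.4 FPKM in Con. Of the 6 endothelial markers tested, 3 were lower in cKO without overlap (Pecam1, Cdh5 and Tek), against 11.9% of all genes. Pecam1 was at 1.002 to 1.44 FPKM in cKO and 2.01 to 2.65 FPKM in Con (adjusted p = 0.223). The smooth muscle gene Tagln was at 58.1, 28.1 and 22.4 FPKM in cKO libraries, against 49.7, 48.3 and 50.7 FPKM in Con libraries, so that cKO_262 stood apart from the other cKO libraries as it did for Col6a1 and Col6a2. Acta2, Mcam and Cspg4 were also highest in cKO_262 among the cKO libraries, with overlap between the groups, whereas Myh11, Rgs5 and Notch3 were not. A link of these markers to Col6a1 and Col6a2 was not tested. Myh11, the smooth muscle myosin gene with the smallest p of the list, was at 54.01, 56.7 and 81.1 FPKM in cKO libraries, against 36.2, 33.7 and 36.9 FPKM in Con libraries (adjusted p = 0.125). The pericyte gene Rgs5 was at 78.2 to 80.5 FPKM in cKO and 86.2 to 110.2 FPKM in Con. Both had groups without overlap, on opposite sides.

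The 7 cartilage markers summed to 95.1 to 102.1 FPKM in cKO and 88.1 to 103.6 FPKM in Con. The largest part of that sum was Sox9, at 45.1 to 51.7 FPKM in cKO and 48.2 to 56.8 FPKM in Con. Of the 6 cartilage markers tested, 2 had positive and 4 negative differences. Among these, 0 were higher without overlap (against 9.59% of all genes) and 1 was lower (against 11.9% of all genes). The lower one was the matrix gene Comp, at 2.32 to 3.28 FPKM in cKO and 3.53 to 5.64 FPKM in Con. The 8 thymocyte markers summed to 26.3 to 34.7 FPKM in cKO and 39.9 to 65.3 FPKM in Con, with 5 of 7 tested lower at an unadjusted p under 0.05 (71.4%, against 7.82% of all genes), and the 6 markers of macrophages and dendritic cells to 286.2 to 309.2 FPKM in cKO and 352.0 to 399.4 FPKM in Con. Of the markers of macrophages and dendritic cells, Aif1 was at 10.1 to 16.1 FPKM in cKO and 3.85 to 4.73 FPKM in Con (adjusted p = 0.0555). Lyz2 carried most of that sum, at 241.7 to 275.1 FPKM in cKO and 324.2 to 362.2 FPKM in Con, and Emr1, Csf1r, Itgax and Cd68 overlapped between the groups. The 6 cortical epithelial markers summed to 572.7 to 791.7 FPKM in cKO and 621.3 to 675.7 FPKM in Con. Of these lists 0 genes passed over all genes, and no list has all its markers at 0. The part of such cells in the collagen values was not tested.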

How the data were processed

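The authors deposited 1 table per library, made with Bowtie2 2.2.5 and Cufflinks on mouse build mm10 per the submitters' processing notes. The deposited values were taken as FPKM because Cufflinks writes that unit, which the headers do not name. The annotation and strand setting are not given in the sources used here, nor is any scaling of one library to another. Per the labels' protocols, total RNA was copied and amplified with a REPLI-g WTA kit before library preparation, and amplification can favour some transcripts. Rows of a symbol were summed, and 44 rows of 25 symbols that had turned into dates were left out. Starts were raised by 1 base to count from 1.

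The 15720 genes whose mean reached 0.5 FPKM were fitted in R 4.3.3 by limma 3.58.1 on log2(FPKM + 1) (eBayes with trend, 2-sided, Benjamini-Hochberg over all genes). The fit was checked on simulated data, with changes planted only in genes averaging at least 5 FPKM. At an adjusted p under 0.05 it recovered 51 of 100 changes of 1 log2 unit and 91 of 100 of 2 log2 units. It made 5 false calls. Many changes of 1 log2 unit can thus be missed, and genes below 5 FPKM, among them many collagen genes, were not covered by the check. Folds are on that scale and understate changes of low genes. The collagen genes and lists were chosen with earlier results of these data known. Older symbols were matched through RefSeq. Values by library are given for the 4 genes with the smallest p in each class, those averaging 10 FPKM or more and the type IV pairs, and in each list for up to 4 genes with the smallest p, and 1 such gene is not reported here. The depth is unknown, so no counting error is given. Alternatives were other pseudocounts, filters and scalings, arrayWeights, the highest row of a symbol in place of the sum, and libraries left out. Promoters are from RefSeq (GRCm38.p6), and no protein sequence was used.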

Additional observations from a re-analysis of the deposited data

How the results depend on the processing

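The number of all genes changed was 3025 with arrayWeights, which gave Con_261 a weight of 8.72 and cKO_265 one of 0.263, and it was 2 to 23 with 1 library left out (2 without Con_253, Con_261 or Con_264, 23 without cKO_262 and 19 without cKO_265), against 12 in the fit as reported. The number of collagen genes changed was 9 with arrayWeights (Col12a1, Col13a1, Col16a1, Col17a1, Col1a2, Col2a1, Col6a1, Col6a2 and Col6a4) and 0 to 1 with 1 library left out, and 0 under the other alternatives. The median difference of the collagen genes was 0.16 among genes of at least 5 FPKM, 0.11 under quantile normalization and 0.11 without both Con_253 and cKO_265. That of the fibrillar genes was 0.16 among genes of at least 5 FPKM and -0.20 to 0.0133 with 1 library left out, and -0.20 was without cKO_263. That of the other chains was 0.23 among genes of at least 5 FPKM and 0.15 under quantile normalization.

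The sign turned for Col14a1 under quantile normalization (0.0262), median centring (0.0771) and with 1 library left out (-0.0325 to 0.0397). It turned for Col4a2 under median centring (0.0058), without both Con_253 and cKO_265 (0.15) and with 1 library left out (-0.22 to 0.18). It turned for Col4a5 with arrayWeights (-0.0705), without both of these libraries (-0.0654) and with 1 library left out (-0.0487 to 0.20). For these 3 genes and all settings above the cause was not tested. Of the 35 tested collagen genes, 16 turned in at least 1 alternative. All 9 collagen genes whose groups do not overlap had the same sign in every alternative in which they were tested. For these 9 genes the sign was fixed in advance under most alternatives. Without overlap, only the scalings and the highest row of a symbol could have turned it. No paired analysis was possible because the groups share no replicate numbers. The depth behind the FPKM is unknown, so the counting error of low genes such as Col13a1 and Col8a1 cannot be given. The deposited rows carry a status, which was not used here, and 18 of the 50 collagen rows had the status NOTEST. The rows of Col13a1, Col8a1, Col8a2 and Col26a1 were among them, although these genes passed the minimum and were tested.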
